A study of Mus musculus with 40 samples.

Results

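The genes described here are the cyclins Ccna2, Ccnb1, Ccnb2, Ccnd1, Ccnd2, Ccnd3, Ccne1, Ccne2 and Ccnf and the kinase Cdk1. They were chosen by name, as the G1 cyclins of the D type to be set against the cyclins of S phase and mitosis, and make up 10 genes, set against 18193 genes that have a probe set of their own in the annotation of the array. All but Ccnb1 are among the 18193, and these 9 genes have 22 of the 45037 probe sets tested, 13 of them for the D-type cyclins. The brightest probe set over all arrays stands for each gene. Ccnb1 is represented by a probe set that only a list of changed probe sets published with these arrays names, so its values are given as a description and it was left out of every test and count of passed genes.

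The study profiled mammary glands and tumours of 40 mice with Affymetrix expression arrays, 1 for each animal, in 8 groups of 5. Groups invasive_tumour, 1M, 2M, 3M, 4M, 5M and before_activation came from WAP-TNP8 mice, in which the milk protein promoter WAP drives the SV40 T/t antigen in mammary epithelial cells once a lactation has switched it on. The months count from that lactation, before_activation mice had not lactated, and the tumours were taken 4 or 5 months after it. Group wild_type holds BalbC mice without the transgene, and wild_type and before_activation together are the 10 controls. Ages are not given in the sources used here. No group is labelled as wild type after a lactation, so an active transgene and a past lactation cannot be told apart in any comparison with the controls.

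Cyclins are the regulatory partners of cyclin-dependent kinases, and most of them are made and destroyed once per division. D-type cyclins bind Cdk4 and Cdk6 in G1 and respond to mitogens, E-type cyclins bind Cdk2 at the entry into S phase, cyclin A2 acts with Cdk2 in S phase and with Cdk1 in G2, and the B-type cyclins drive mitosis with Cdk1. Ccnf is a cyclin by sequence that serves as the substrate receptor of a ubiquitin ligase and activates no kinase. D-type cyclins inactivate the retinoblastoma protein family, to which the SV40 large T antigen also binds, and E2F factors released from that family switch on genes of S phase. Genes of G2 and mitosis often carry CCAAT boxes, bound by NF-Y, and a cell cycle genes homology region (CHR), bound by the MuvB core of the DREAM complex.

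The sequence before the start site is shown as a description, and a link between its letters and the levels on the arrays was not tested. RefSeq promoters of build GRCm38.p6 matched 6 of the 10 genes, and there was no entry for Ccna2, Ccne2, Ccnd1 and Ccnd2. The 170 bases before each start site are printed 5′ to 3′, and bases after it were not searched. Capitals mark the letters searched on both strands: TTTGAA and TTCGAA for the CHR, CCAAT for the CCAAT box, and TTTCGCGC, TTTGGCGC, TTTCCCGC and TTTGCCGC for E2F. No 2 matches overlapped in these windows.
Ccnb2 (chr9:70421555-70421724, minus strand): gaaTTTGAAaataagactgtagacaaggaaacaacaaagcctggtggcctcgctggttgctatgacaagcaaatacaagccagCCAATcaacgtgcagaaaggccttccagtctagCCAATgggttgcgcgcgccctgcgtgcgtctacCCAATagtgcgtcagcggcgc
Cdk1 (chr10:69352913-69353082, minus strand): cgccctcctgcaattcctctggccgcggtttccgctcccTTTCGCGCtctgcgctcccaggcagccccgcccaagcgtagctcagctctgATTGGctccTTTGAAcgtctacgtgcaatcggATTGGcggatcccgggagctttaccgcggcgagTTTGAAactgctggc
Ccnf (chr17:24251410-24251579, minus strand): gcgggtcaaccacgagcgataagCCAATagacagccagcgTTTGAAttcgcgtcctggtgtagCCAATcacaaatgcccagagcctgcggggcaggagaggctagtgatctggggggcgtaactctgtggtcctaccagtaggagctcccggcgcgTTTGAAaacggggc
Ccnb1 (chr13:100786487-100786656, minus strand): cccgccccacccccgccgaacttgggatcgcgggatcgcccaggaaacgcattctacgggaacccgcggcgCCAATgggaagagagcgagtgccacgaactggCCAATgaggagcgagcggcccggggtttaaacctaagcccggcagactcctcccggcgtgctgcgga
Ccne1 (chr7:38107491-38107660, minus strand): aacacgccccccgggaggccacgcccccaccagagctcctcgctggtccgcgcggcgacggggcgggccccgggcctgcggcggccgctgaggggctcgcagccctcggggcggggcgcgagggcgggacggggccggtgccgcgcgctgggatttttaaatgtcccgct
Ccnd3, the first start site (chr17:47504881-47505050, plus strand): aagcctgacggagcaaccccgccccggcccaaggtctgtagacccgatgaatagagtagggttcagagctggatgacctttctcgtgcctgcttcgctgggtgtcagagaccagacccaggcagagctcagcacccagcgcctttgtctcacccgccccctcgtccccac
Ccnd3, the second start site (chr17:47593297-47593466, plus strand): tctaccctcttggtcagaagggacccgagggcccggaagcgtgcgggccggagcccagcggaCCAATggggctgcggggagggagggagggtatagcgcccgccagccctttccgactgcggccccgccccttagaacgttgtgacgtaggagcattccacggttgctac
Ccnb2 held 3 CCAAT boxes, 87, 54 and 21 bases before the start site. Its 1 match to the CHR letters lay 167 bases before it, at the far edge of the window. Cdk1 held 2 CCAAT boxes, 2 CHR and the E2F word TTTCGCGC, and Ccnf held 2 CCAAT boxes and 2 CHR. Ccnb1 held 2 CCAAT boxes and none of the other words. Ccne1 held no match, and of the 2 start sites of Ccnd3 only the second held any, a single CCAAT box. Among all 32851 promoter windows of the same length, 11.1% held a CHR, 26.6% a CCAAT box, 1.36% an E2F word, 6.85% at least 2 CCAAT boxes, and 0.749% at least 2 CCAAT boxes and a CHR. A match is a description of the letters and says nothing of binding in these glands.

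Values are log2 intensities, and a gene passed a comparison at an adjusted p of at most 0.05 in limma, adjusted over all 45037 probe sets. Array medians lay between 4.23 and 4.6 and 52.2% of probe sets had a mean below 5, near the floor, and differences that start from there move with the value of the floor. Some arrays stood apart. The array before_activation replicate 1 had a mean of 7.27 over 4 milk protein genes, against 2.97 to 3.55 in the other before_activation arrays. The mean of 12 lymphocyte markers ran from 3.29 to 10.62 and was over 7 on 14 arrays, none of them in invasive_tumour, 4 in 2M, 2 in before_activation and 1 in wild_type. Luminal epithelial markers were high on every array, with a mean of 8 genes between 11.31 and 13.37. In whole tissue, fewer cells of a type and less RNA per cell cannot be told apart.

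In the glands of 2M and 3M together the cyclins of S phase and mitosis and Cdk1 were far above the controls, while among the D-type cyclins and Ccne1 the differences stayed within -0.61 and 0.09. Of the 9 tested genes 5 rose (Ccna2, Ccnb2, Cdk1, Ccnf and Ccne2) and 1 (Ccnd3) fell, where 5.36% of all probe sets rose and 6.53% fell. All of the 5 but Ccne2, which is 4 genes, also passed the stricter call of an adjusted p of at most 0.01 and a 5-fold change, which 0.528% of probe sets passed upwards.

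Ccna2, the cyclin of S phase and G2, had a lowest, median and highest level of 9.42, 10.30 and 11.33 in 2M and 3M, against 2.45, 5.60 and 8.92 in controls. All 10 glands lay above all 10 controls, a pattern of 0.731% of probe sets. The log2 difference was 5.02 ± 0.73 (SE, 10 arrays against 10, adjusted p = 0.00019), or 32.5-fold. With levels under 5 raised to 5 it was 4.17 ± 0.48. Cdk1, the mitotic kinase, lay between 9.36 and 11.13 (median 10.05) in 2M and 3M, against 4.12 to 9.28 (median 6.94) in controls. Its difference was 3.50 ± 0.53 (adjusted p = 0.000263), with no overlap of the groups. Ccnb2, a B-type cyclin, lay between 8.47 and 10.70 in 2M and 3M, against 3.15 to 8.89 in controls, and differed by 3.78 ± 0.64 (adjusted p = 0.000706). Its overlap came from before_activation replicate 1 at 8.89, which was also the highest control for Ccna2 and Cdk1 and for Ccnf at 7.01. Ccnf lay between 6.05 and 8.75 in 2M and 3M, against 3.59 to 7.01 in controls, and differed by 2.62 ± 0.43 (adjusted p = 0.000518). Ccnb1, the other B-type cyclin, lay between 7.29 and 9.75 in 2M and 3M and between 2.69 and 7.21 in controls, with means 4.73 apart and no overlap.

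Of the 2 E-type cyclins, both partners of Cdk2, only Ccne2 passed, and the difference between them was not tested. Ccne2 lay between 6.77 and 9.04 (median 7.65) in 2M and 3M, against 4.65 to 6.77 (median 5.73) in controls, and rose by 2.06 ± 0.31 (adjusted p = 0.000264). Ccne1 lay between 9.35 and 10.17 in 2M and 3M, against 9.03 to 10.28 in controls, and its difference of 0.09 ± 0.13 did not pass (adjusted p = 0.81). Of the D-type cyclins, Ccnd3 lay between 9.70 and 10.83 in 2M and 3M, against 10.66 to 11.27 in controls. It fell by 0.61 ± 0.15 (adjusted p = 0.00871), and each of the 10 glands was under the control mean. That call rests on the brightest probe set, which averaged 10.39 over all arrays. The 2 other probe sets of Ccnd3 averaged 6.51 and 2.92, the second of them near the floor. With the mean of all 3 the difference was 0.03 ± 0.17 (adjusted p = 0.957). Against before_activation alone the brightest gave -0.47 ± 0.19 (adjusted p = 0.123). Ccnd2 averaged 12.38 ± 0.58 in 2M and 3M and 12.74 ± 0.43 in controls (SD, n = 10 each), a difference of -0.36 ± 0.22 that did not pass (adjusted p = 0.385), although 1 of its 7 probe sets fell by 0.70 ± 0.22 (adjusted p = 0.0475). Ccnd1 averaged 10.62 ± 0.74 in 2M and 3M and 10.74 ± 0.57 in controls, a difference of -0.12 ± 0.29 (adjusted p = 0.912). The median difference was 3.06 over the 6 genes of the later phases tested and -0.36 over the 3 D-type cyclins, and 0.01 over all probe sets. Leaving out any single array, or all arrays with lymphocyte markers over 7 with or without before_activation replicate 1, left 5 genes higher and 1 lower. In the same comparison all 4 milk protein genes rose, 5 of 7 adipocyte markers fell (median difference -0.67) and no lymphocyte marker passed (median difference 1.48), and their part in the results was not tested.

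**Figure D1:**
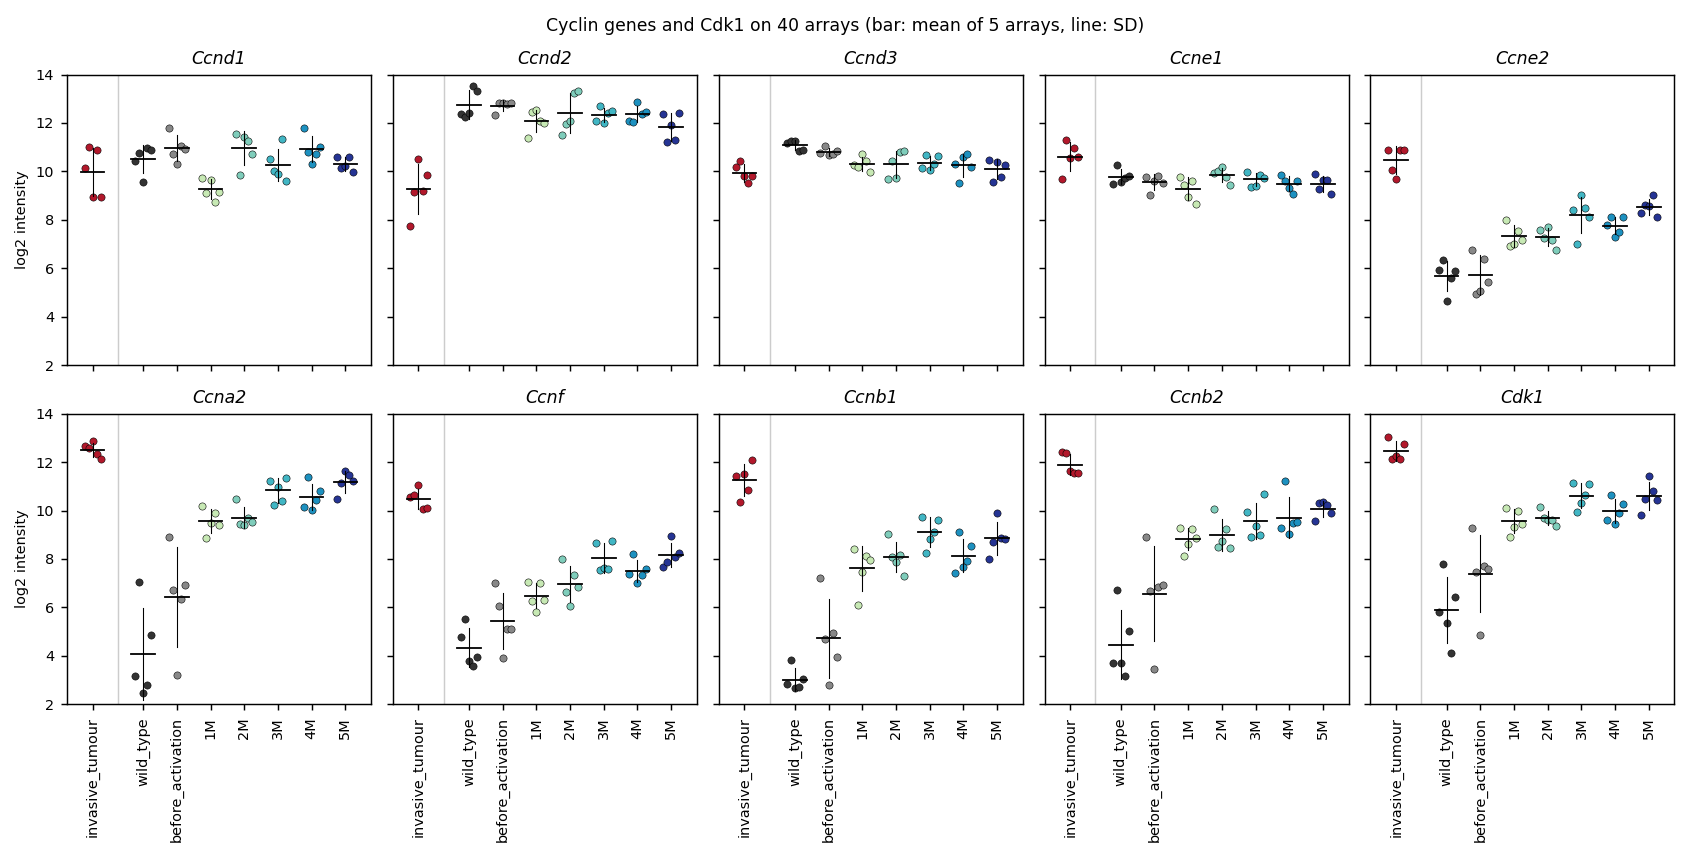
Log2 intensity (vertical axis) of each of the 10 genes on the 40 arrays, by group on the horizontal axis. Points are arrays, bars the mean of 5 arrays and vertical lines the SD. Ccna2, Ccnf, Ccnb1, Ccnb2 and Cdk1 have higher means in the tumours than in every other group, with Ccna2 averaging 12.52 there, and Ccnd2 has its lowest mean, 9.29, in the tumours.

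The invasive tumours held the highest mean levels of every cyclin of the later phases and of Cdk1, and the lowest of Ccnd2 and Ccnd3. Of the 9 genes 6 rose against the controls and 2 fell, where 18.8% of probe sets rose and 14.4% fell. By the stricter call 5 rose and 1 fell, against 2.83% and 3.93% of probe sets. Ccna2 was 12.65, 12.58, 12.87, 12.33 and 12.14 in the 5 tumours, against a lowest, median and highest control of 2.45, 5.60 and 8.92. It was 7.27 ± 0.99 higher (adjusted p = 4.46e-05), and 6.42 ± 0.61 higher with levels under 5 raised to 5. Ccnb2 was 12.40, 12.36, 11.62, 11.55 and 11.56 in the tumours and at most 8.89 in controls, a difference of 6.39 ± 0.87 (adjusted p = 4.48e-05). Cdk1 was 13.03, 12.14, 12.27, 12.12 and 12.73 in the tumours and at most 9.28 in controls, a difference of 5.81 ± 0.71 (adjusted p = 1.68e-05). The tumours were close to each other for all of these, and lay above every control for 5 of the 9 tested genes, a pattern of 8.04% of probe sets. Ccnf, the ubiquitin ligase subunit, was 10.56, 10.64, 11.05, 10.07 and 10.11 in the tumours and at most 7.01 in controls (difference 5.60 ± 0.50, adjusted p = 8.78e-07). Ccnb1 was 11.43, 10.36, 11.50, 10.85 and 12.08 in the tumours and at most 7.21 in controls, with means 7.38 apart. The second, dim probe set of Ccnf rose by 4.25 ± 0.10 in the tumours, but by 0.22 ± 0.08 in 2M and 3M, where it did not pass (adjusted p = 0.0659).

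Both E-type cyclins rose in the tumours. Ccne2 was 10.89, 10.05, 9.68, 10.87 and 10.90 in the tumours, against at most 6.77 in controls, and rose by 4.78 ± 0.35, or 27.5-fold (adjusted p = 1.34e-07). Ccne1 was 9.68, 11.30, 10.56, 10.95 and 10.58 in the tumours, against 9.03 to 10.28 in controls, and rose by 0.95 ± 0.23, or 1.93-fold (adjusted p = 0.00439). Tumour replicate 1 lay inside the range of the controls. The second probe set of Ccne1, which is dimmer, rose by 1.28 (adjusted p = 0.00581), and the brighter one is of a type that can share sequence with other transcripts.

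Ccnd2 was 7.75, 9.14, 10.52, 9.18 and 9.87 in the tumours, against a lowest, median and highest control of 12.23, 12.80 and 13.51. Every tumour lay below every control, and the gene fell by 3.45 ± 0.36, or 10.9-fold (adjusted p = 3.35e-06). All 6 of its other probe sets fell too, by values between -2.69 and -4.10. Ccnd3 was 10.17, 10.43, 9.79, 9.52 and 9.79 in the tumours, against 10.66 to 11.27 in controls, and fell by 1.00 ± 0.15 (adjusted p = 8.15e-05), again with no overlap, as for 8.46% of probe sets. Its 2 other, dimmer probe sets, with means of 6.51 and 2.92 over all arrays, differed by -0.09 and -0.04 and did not pass. The mean of all 3 differed by -0.38 ± 0.21 (adjusted p = 0.218). That mean ended the call of Ccnd3 in 1M and in 4M and 5M as well. Ccnd1 was 10.13, 10.99, 8.95, 10.89 and 8.96 in the tumours, against 9.56 to 11.79 in controls, so that 3 tumours lay inside the control range and 2 below it. Its difference of -0.75 ± 0.39 did not pass (adjusted p = 0.172), nor did those of its other probe sets, -0.51 and 0.16.

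The tumours also differed from the controls in their cell type markers. All 7 adipocyte markers measured fell, with a mean over the 7 between 6.35 and 10.78 in the tumours, against 13.57 to 14.75 in the controls. All 5 endothelial, 7 of 8 basal and myoepithelial and 3 of 5 macrophage markers fell as well. Of 8 luminal markers 4 rose and 2 fell. The 5 tumours stood in the same order for Ccnd2 and for the adipocyte mean, which was 6.35, 8.04, 10.78, 8.44 and 9.63 in tumours 1 to 5. Other lists that fell put the tumours in other orders. The endothelial mean was 7.02, 7.36, 7.76, 7.21 and 7.13, and the basal and myoepithelial mean 7.66, 6.80, 7.89, 7.02 and 7.33. For macrophages it was 9.61, 10.11, 10.34, 9.41 and 10.73. The part of these markers in the fall of Ccnd2 was not tested. Lymphocyte markers were low in every tumour, with a mean between 3.29 and 4.81.

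**Figure D2:**
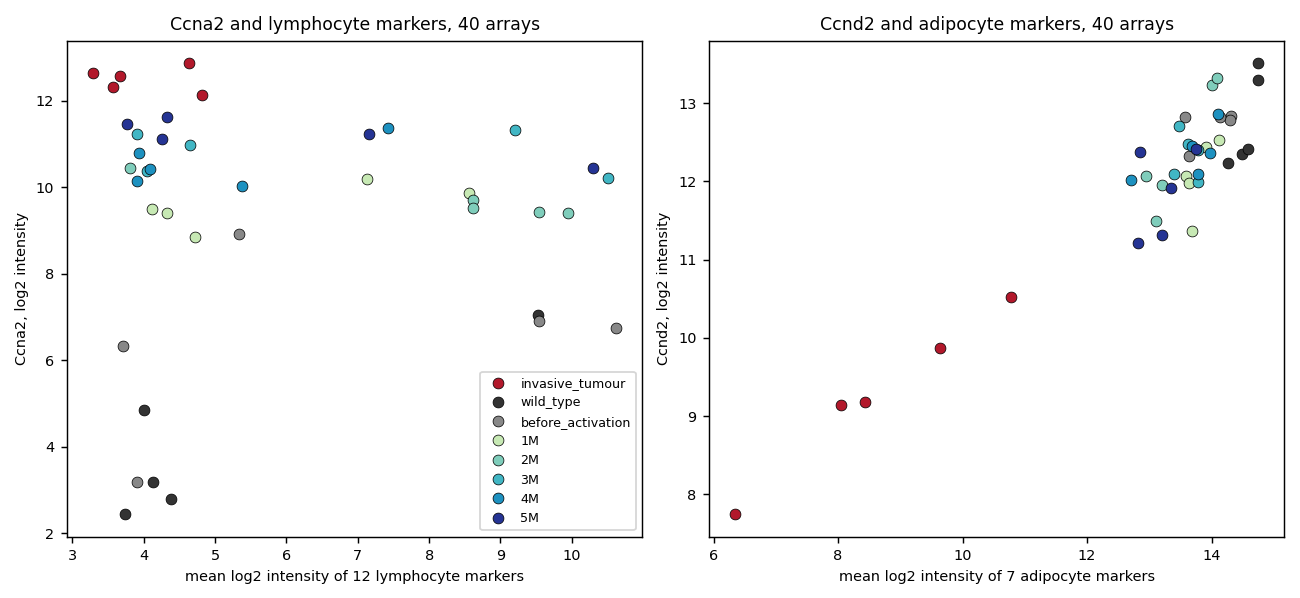
Left, the level of Ccna2 (vertical axis, log2 intensity) against the mean log2 intensity of 12 lymphocyte markers. Right, Ccnd2 against the mean of 7 adipocyte markers. Each point is 1 of the 40 arrays, coloured by group. The tumours have lymphocyte means up to 4.81 and the highest Ccna2, and their adipocyte means of 6.35 to 10.78 go with the lowest Ccnd2.

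**Figure D3:**
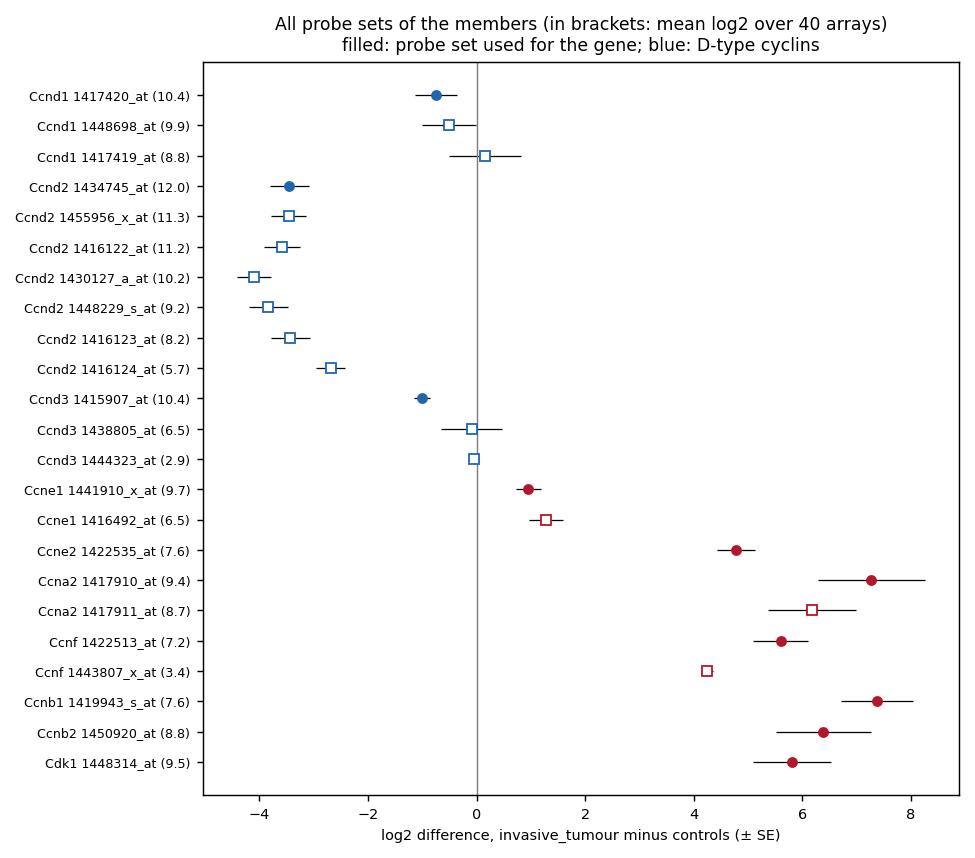
Log2 difference between invasive_tumour and controls (horizontal axis, ± SE from limma) for all 22 probe sets of the 9 annotated genes and the probe set of Ccnb1. Filled points are the probe sets used for the genes. All 7 probe sets of Ccnd2 lie left of 0, those of Ccnd3 lie between -1.0 and -0.04, and all probe sets of Ccne1, Ccne2, Ccna2, Ccnf, Ccnb2 and Cdk1 lie right of 0.

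Tumours were then set against the glands of 4M and 5M, which were taken at the same times after lactation, so that no control array enters. Of the 9 genes 6 rose and 1 fell, where 14.4% of probe sets rose and 10.8% fell. Ccnf rose by 2.65 ± 0.28 (adjusted p = 1.09e-05), Ccne2 by 2.33 ± 0.29, Cdk1 by 2.17 ± 0.29, Ccnb2 by 2.01 ± 0.31 and Ccna2 by 1.65 ± 0.27, and for each of these every tumour was above every gland, as for 4.35% of probe sets. Ccne1 rose by 1.12 ± 0.22 (adjusted p = 0.00176) with overlapping groups. Ccnd2 fell by 2.81 ± 0.38 (adjusted p = 8.95e-05), with every tumour below every gland, as for 5.04% of probe sets. All 7 adipocyte markers (median difference -5.2), all 5 endothelial and 7 of 8 basal and myoepithelial markers fell in the same comparison. So did 2 of 5 macrophage markers and all 4 milk protein genes, and the part of all these genes in the fall of Ccnd2 was not tested. Ccnd3, at 9.94 ± 0.36 in tumours (SD, n = 5) and 10.17 ± 0.42 in 4M and 5M (SD, n = 10), and Ccnd1, with a difference of -0.63 ± 0.37, did not pass.

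In 4M and 5M against the controls 5 genes rose and 2 fell, where 7.8% of probe sets rose and 7.02% fell. Ccna2 lay between 10.03 and 11.62 in 4M and 5M, against 2.45 to 8.92 in controls, and rose by 5.62 ± 0.71. Ccnb2 rose by 4.38 ± 0.63, Cdk1 by 3.64 ± 0.52, Ccnf by 2.96 ± 0.38 and Ccne2 by 2.45 ± 0.27, and none of these 5 genes had overlapping groups, where 1.41% of probe sets had every gland above every control. Ccnb1 averaged 8.49 ± 0.74 in 4M and 5M and 3.87 ± 1.44 in controls (SD, n = 10 each). Ccnd3 fell by 0.77 ± 0.15 (adjusted p = 0.0014) and Ccnd2 by 0.64 ± 0.21 (adjusted p = 0.0421). With before_activation alone as controls neither passed (Ccnd3 at -0.63, adjusted p = 0.0638, and Ccnd2 at -0.62, adjusted p = 0.143). Another probe set of Ccnd2 fell by 1.12 ± 0.21 (adjusted p = 0.00095). The fall of Ccnd2 did not pass without any 1 of 11 arrays (wild_type replicates 4 and 5, before_activation replicates 2, 3, 4 and 5, 4M replicates 1 and 2, and 5M replicates 2, 3 and 4), which left 1 gene lower. The comparisons of 2M and 3M, of 4M and 5M, of 1M and of the tumours use the same 10 control arrays and are not independent of each other.

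**Figure D4:**
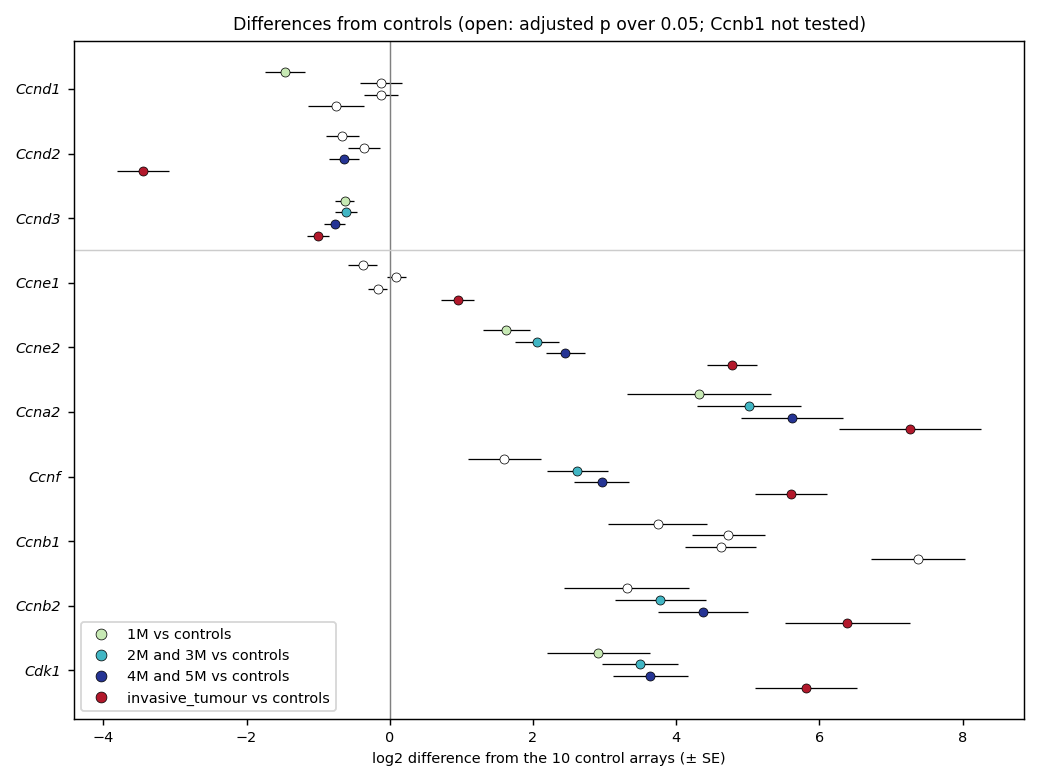
Log2 difference from the 10 control arrays (horizontal axis, ± SE from limma) for each gene in 1M, in 2M and 3M, in 4M and 5M, and in invasive_tumour. Filled points passed an adjusted p of 0.05, and Ccnb1 was not tested. Ccna2 lies 5.02 to the right of 0 in 2M and 3M and 7.27 in the tumours, Ccnd2 lies 3.45 to the left in the tumours, and Ccnd3 lies left of 0 in all 4 comparisons.

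The study set its 1M animals aside from its further work, naming artifacts of lactation. At 1M, the time nearest to lactation, Ccnd1 was at its lowest. It was 9.72, 9.10, 9.66, 8.74 and 9.14 in 1M, against 9.56 to 11.79 in controls, and fell by 1.46 ± 0.28, or 2.76-fold (adjusted p = 0.00965). The mean of the 4 milk protein genes was between 12.30 and 14.11 in 1M, against 2.97 to 7.27 in controls. It was 10.94 to 12.73 in 2M, 10.92 to 13.49 in 3M, 12.02 to 13.67 in 4M and 11.78 to 13.88 in 5M. In 2M, 3M, 4M and 5M Ccnd1 averaged 10.96, 10.27, 10.92 and 10.30. The part of the milk protein genes in the fall of Ccnd1 was not tested. Ccnd3 fell by 0.63 ± 0.13 (adjusted p = 0.0164), while 1.18% of all probe sets fell. A further 3 genes rose, where 2.67% of probe sets did: Ccna2 by 4.32 ± 1.00 (adjusted p = 0.0271), Cdk1 by 2.91 ± 0.72 (adjusted p = 0.037) and Ccne2 by 1.63 ± 0.33 (adjusted p = 0.0128). Only for Ccne2, 1 of the 9 genes, was every 1M array above every control, as for 1.4% of probe sets. Ccna2 was 10.19, 8.86, 9.49, 9.88 and 9.40 in 1M, and the lowest of these lay just under before_activation replicate 1 at 8.92. The difference of Ccnb2, 3.31 ± 0.87, did not pass, with an adjusted p that rounds to 0.05, and that of Ccnf was 1.60 ± 0.51 (adjusted p = 0.107). The count of genes higher was 5 without before_activation replicate 1, 0 without 1M replicate 1, and 1 without 1M replicate 3, 4 or 5, and the count lower was 1 without 1M replicate 1. Without the arrays with lymphocyte markers over 7, which leaves 3 glands and 7 controls, no gene passed, and without before_activation replicate 1 as well 3 rose (Ccna2 by 5.45 ± 0.85, Ccnb2 by 4.23 ± 0.79 and Ccnf by 1.95 ± 0.35). With before_activation alone as controls no gene rose and Ccnd1 alone fell.

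Ccnd1 then stood higher at 2M: it was 11.56, 9.85, 11.41, 11.25 and 10.73 in 2M, against 9.72, 9.10, 9.66, 8.74 and 9.14 in 1M. Every 2M array was above every 1M array, as for 1.31% of probe sets, but the difference of 1.69 ± 0.34 did not pass (adjusted p = 0.0948). None of the 9 genes passed between 2M and 1M in limma, where 0.109% of probe sets rose and 0.149% fell. At an unadjusted p under 0.05 there were 5488 of all probe sets (12.2%) and 2 of the 9 genes, Ccnd1 and Ccne1, and the methods' t-test (with unequal variances) after adjustment called none either. Between 2M and 1M Ccna2 differed by 0.14 ± 0.28, Ccnb2 by 0.17 ± 0.34 and Cdk1 by 0.13 ± 0.24.

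The glands of 2M alone had 5 genes higher than the controls, where 1.98% of probe sets rose and 1.98% fell: Ccna2 by 4.46 ± 0.99, Ccnb2 by 3.49 ± 0.88, Cdk1 by 3.04 ± 0.71, Ccnf by 2.09 ± 0.53 and Ccne2 by 1.60 ± 0.32. For 3 of the 9 genes (Ccne2, Ccna2 and Cdk1) every 2M array was above every control, as for 0.939% of probe sets. For Ccne2 this was close to a tie, since the lowest 2M array and the highest control both round to 6.77. Adjusted p-values ran from 0.0175 for Ccne2 to 0.0443 for Ccnf, and with before_activation alone as controls none of the 5 passed (Ccna2 by 3.28 ± 0.89, adjusted p = 0.189). None of the genes fell in limma or in the methods' t-test, and Ccnd3 at -0.65 ± 0.19 was the 1 gene lower at an unadjusted p under 0.05 (adjusted p = 0.0739). Lymphocyte markers were over 7 in 4 of 5 glands of 2M, against 3 of 10 controls. The 3 controls had Ccna2 levels of 7.06, 6.74 and 6.92. In the other 7 controls Ccna2 was 2.45, 2.80, 3.18, 3.20, 4.86, 6.34 and, in before_activation replicate 1, 8.92. The remaining 2M gland, replicate 1, with a lymphocyte mean of 3.81, had the highest Ccna2 of the group at 10.46, far from the next at 9.70. The part of lymphocytes in the rise of Ccna2 was not tested. With the lymphocyte mean as a covariate the difference of Ccna2 was 3.79 ± 1.00 (adjusted p = 0.0725) and 1 gene, Ccne2, rose. The count of genes higher was 0 without 2M replicate 1 or 3, 1 without 2M replicate 2, 2 without 2M replicate 4 or wild_type replicate 1, 3 or 5, and 3 without 2M replicate 5, wild_type replicate 4 or before_activation replicate 3 or 4. Without 2M replicate 4 or 5, 1 gene was lower.

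Among the controls, before_activation and wild_type, no gene passed in limma, and neither did any of all probe sets (0.0% in each direction). At an unadjusted p under 0.05 there were 15477 probe sets and 1 of the 9 genes, Ccnd3. The methods' t-test called none of the 9 genes but 278 probe sets higher and 10837 lower, and on 16.9% of probe sets every before_activation array lay below every wild_type array. Ccna2 was 8.92, 6.74, 3.20, 6.34 and 6.92 in before_activation, against 3.18, 7.06, 2.45, 2.80 and 4.86 in wild_type. Both groups spread widely, and the difference of 2.35 ± 1.19 did not pass (adjusted p = 0.195). Ccnb2 differed by 2.09 ± 1.03 and Cdk1 by 1.48 ± 0.89, neither past the threshold. With before_activation alone as the controls, Ccna2 in 2M and 3M was 3.85 ± 0.69 higher (adjusted p = 0.00785) and the same 5 genes passed. In a fit of all 8 groups 3 of the genes, Ccna2, Ccnb2 and Cdk1, were higher in before_activation than in wild_type. That fit called 844 of all 45037 probe sets higher and 9725 lower.

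Over the months 2M, 3M, 4M and 5M no gene had a slope that passed in limma (0.0577% of probe sets had a positive and 0.00888% a negative one). At an unadjusted p under 0.05 there were 5172 of all probe sets (11.5%) and 5 of the 9 genes: Ccna2 at 0.41 ± 0.11 per month (adjusted p = 0.122), Ccnb2 at 0.33 ± 0.13, Ccne2 at 0.32 ± 0.11, Ccnf at 0.31 ± 0.13 and, downwards, Ccne1 at -0.12 ± 0.06. Cdk1 had a slope of 0.21 ± 0.11, and those of Ccnd1, Ccnd2 and Ccnd3 were -0.13 ± 0.12, -0.17 ± 0.10 and -0.07 ± 0.08. Without 5M replicate 1 the slope of 1 gene passed, Ccna2 at 0.47 ± 0.11 (adjusted p = 0.0437).

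Ordered by their means for Ccna2, the groups were invasive_tumour at 12.52 ± 0.28, 5M at 11.18 ± 0.45, 3M at 10.83 ± 0.50, 4M at 10.55 ± 0.54, 2M at 9.71 ± 0.44, 1M at 9.56 ± 0.50, before_activation at 6.42 ± 2.06 and wild_type at 4.07 ± 1.91 (SD, n = 5 each). Neighbours in this order overlapped in 6 of 7 cases, all but invasive_tumour and 5M. Ccnb2 was highest in invasive_tumour at 11.90 ± 0.44 and lowest in wild_type at 4.47 ± 1.44, and Ccnf was 10.49 ± 0.41 in invasive_tumour and 4.33 ± 0.80 in wild_type, with the same single gap. Cdk1 was 12.46 ± 0.40 in invasive_tumour and 5.91 ± 1.36 in wild_type, with 3M at 10.62 ± 0.51 next to the tumours, and Ccne2 was 10.48 ± 0.57 in invasive_tumour and 5.68 ± 0.63 in wild_type. For all of these the tumours were the 1 group apart from its neighbour. How many of all probe sets had such a gap was not counted. Every tumour was above every gland of 4M and 5M on 4.35% of probe sets and below on 5.04%. Ccnd2 had the tumours at the other end, lowest at 9.29 ± 1.03 and apart from 5M at 11.85 ± 0.57, and wild_type highest at 12.76 ± 0.60. For Ccnd1, Ccnd3 and Ccne1 all 7 neighbouring pairs overlapped, and their highest and lowest group means lay 1.69, 1.14 and 1.33 apart, against 8.45 for Ccna2.

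Partners and regulators of these genes were counted in lists, whose counts stand beside the shares of all probe sets, 5.36% higher and 6.53% lower in 2M and 3M, and 18.8% higher and 14.4% lower in the tumours. The cyclin-dependent kinase subunits Cks1b and Cks2 both rose in 2M and 3M, by 1.16 ± 0.17 and 2.36 ± 0.45, and in the tumours, by 2.65 ± 0.23 and 4.02 ± 0.55. Of the kinases that bind D- and E-type cyclins, Cdk2 and Cdk4 rose in both comparisons with the controls (Cdk2 by 1.32 ± 0.30 in 2M and 3M and by 2.84 ± 0.40 in the tumours, Cdk4 by 0.57 ± 0.18 and 1.37 ± 0.29), and Cdk6 passed in neither. A list of 8 genes held kinases and phosphatases that act on Cdk1, and also Mnat1 and the cyclin Ccnh, which counts among the other cyclins as well. Of these 8, 3 rose in 2M and 3M and 5 in the tumours, and none fell. Cdc25c, which activates Cdk1, rose by 3.15 ± 0.42 in 2M and 3M and by 6.22 ± 0.50 in the tumours, and Pkmyt1, which inhibits it, by 0.56 ± 0.16 and 2.74 ± 0.20.

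Of 8 inhibitors of cyclin-dependent kinases, Cdkn3 rose by 1.76 ± 0.41 in 2M and 3M and no other passed. In the tumours 4 rose and 2 fell. Cdkn3 rose by 4.57 ± 0.24 and Cdkn1a, a target of p53, by 2.48 ± 0.25, while Cdkn1c, a broad inhibitor, fell by 3.49 ± 0.41 and Cdkn2c, an inhibitor of Cdk4 and Cdk6, by 1.73 ± 0.27. Of 10 genes that carry out or regulate cyclin destruction, 5 rose and 1 fell in 2M and 3M and 7 rose and 1 fell in the tumours. Cdc20, an activator of the ligase that destroys the B-type cyclins, rose by 3.49 ± 0.39 in 2M and 3M and by 5.76 ± 0.49 in the tumours, and Skp2 by 1.78 ± 0.26 and 4.88 ± 0.32.

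Of 13 retinoblastoma family and E2F genes 5 rose in 2M and 3M and none fell. In the tumours 7 rose and 2 fell. The repressors E2f7 and E2f8 rose by 1.21 ± 0.24 and 2.72 ± 0.41 in 2M and 3M and by 3.97 ± 0.29 and 5.23 ± 0.50 in the tumours. Of 9 factors that act on the promoters of mitotic cyclins, 3 rose in 2M and 3M (Lin9 of the MuvB core by 1.46 ± 0.15, Foxm1 by 1.15 ± 0.27 and Mybl2 by 0.77 ± 0.22) and 6 in the tumours, with none lower. Foxm1 is a gene that the study picked as a marker on these arrays and is no independent case. Of 17 other cyclins and cyclin-like genes 2 rose in 2M and 3M, Cntd1 and Ccnt1, each by 0.54. In the tumours 6 of the 17 rose and 2 fell, the second count close to the 14.4% of all probe sets that fell. Ccng1, a target of p53, differed by -1.02 ± 0.13 there (adjusted p = 2.1e-05). Of the 10 proliferation markers 9 rose in 2M and 3M and all 10 in the tumours. The median differences over these 10 markers were 3.54 and 6.0, those over the 17 other cyclins 0.10 and 0.04, and those over all probe sets 0.01 and 0.00.

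**Figure D5:**
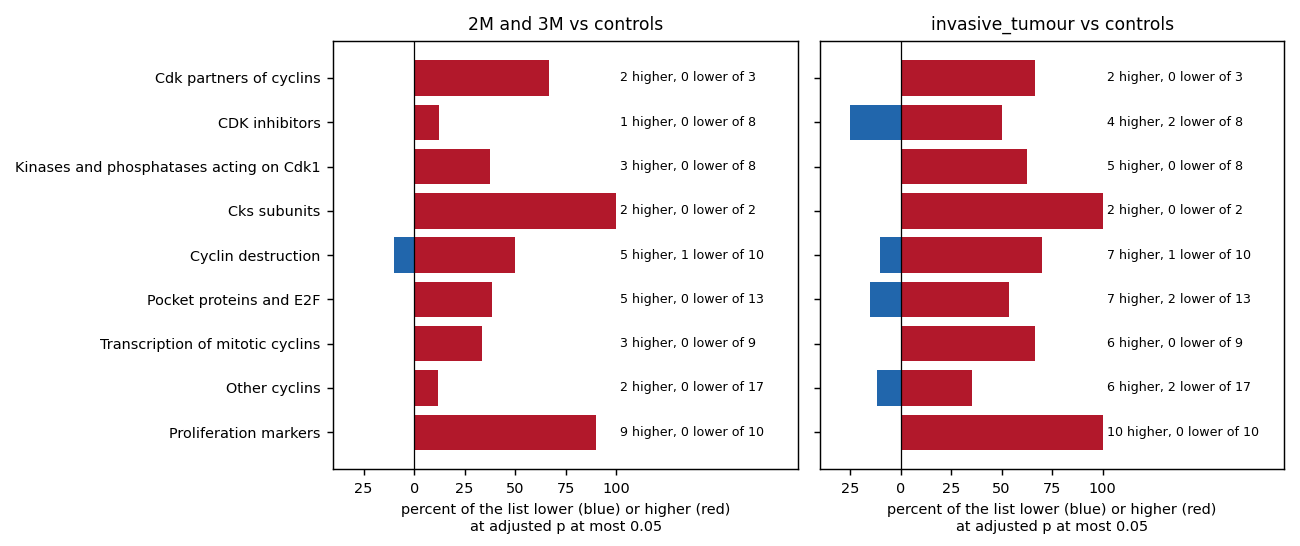
Share of each list (horizontal axis, percent of the genes measured) that was higher (red) or lower (blue) than the controls at an adjusted p of at most 0.05, in 2M and 3M on the left and in the tumours on the right. Both Cks subunits are higher in both comparisons, and 2 and 6 of the 17 other cyclins are.

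Pearson r over the 40 arrays, which fall into the 8 groups, carries differences between groups as well as differences within them. Between Ccna2 and Ccnb2 it was 0.98, and 0.94 with the group means removed. Between Ccne2 and Ccna2 these values were 0.87 and 0.53. The genes whose levels followed each member most closely were ranked by r over the 40 arrays, with the group means left in. For Ccna2 they were Cep55 (0.992), Pbk (0.989) and Nuf2 (0.988), and for Ccnb2 they were Top2a (0.985), Ccna2 (0.985) and Cdca8 (0.984). For Cdk1 they were Nuf2 (0.985), Cdca5 (0.984) and Birc5 (0.983), and for Ccnb1 Bub1 (0.985), Knstrn (0.981) and Prc1 (0.981). Ccnf was closest to Dbf4 (0.972), Anln (0.970) and Ncapd2 (0.970), and Ccne2 to Rad51ap1 (0.965), Rfc4 (0.955) and Atad5 (0.955). Ccnd2 was closest to Hoxc8 (0.954), Gnai1 (0.953) and Aoc3 (0.951). The highest values were lower for Ccnd3 (Uhmk1, 0.810), Ccne1 (Col25a1, 0.745) and Ccnd1 (Vegfc, 0.695).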

How the data were processed

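Total RNA of mammary tissue from 40 mice (50 ng each, with 2 rounds of amplification) was hybridised to mouse expression arrays, and the authors normalized the arrays by GCRMA in GeneSpring GX 10.0. The deposited values were taken from 2 tables: log2 values from which the median of every probe set had been subtracted, and intensity values on a linear scale. The median log2 of the intensity values was added back to the centred log2 values to give the level of a probe set on each array, and the 2 tables matched to 1.04e-06. Of 45101 probe sets 64 are controls and were left out. Each gene was taken from the probe set with the highest mean level among those annotated with that gene alone, which 34945 probe sets were (932 named several genes and 9160 none). All members of the group are named, and of the lists the genes with the lowest p-values. Groups came from the labels, and comparisons were fitted with limma 3.58.1 in R 4.3.3 with 2 groups at a time. P-values were adjusted by the Benjamini-Hochberg method over 45037 probe sets. The slope over 2M to 5M was fitted per month. The scripts were tested on simulated data. Replicates are separate mice, and 5 arrays per group limit the precision. The members and lists were chosen with earlier results of these data known. Alternatives were the methods' t-test with unequal variances, 1 fit of all 8 groups, quantile normalization, a floor of 5, a minimum mean level of 5, the mean of all probe sets of a gene, a replicate block, a lymphocyte covariate, before_activation alone as controls, and leaving out each array. Leaving out the arrays with lymphocyte markers over 7, and before_activation replicate 1 as well, was added after the data were seen. Promoter windows came from RefSeq on GRCm38.p6, and figures and tables were made with Python 3.11.15, pandas 2.3.3 and matplotlib 3.10.9.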

Additional observations from a re-analysis of the deposited data

Results flagged for a closer look

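In 3 of the 80 combinations of a gene and a group, 1 array lay far from the other 4, with a gap to its nearest neighbour of over 0.710 of the whole range of the group. Chance alone gives such a gap in about 1 of 20 groups. Ccnd2 was 12.32 in before_activation replicate 1, with the nearest other array at 12.78 and a gap of 0.885 of the range. Ccna2 was 10.46 in 2M replicate 1, with the next at 9.70 and a gap of 0.731 of the range. Ccnb2 was 11.21 in 4M replicate 2, with the next at 9.54 and a gap of 0.766 of the range.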

How the results depend on the processing

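The 5 genes higher and 1 lower in 2M and 3M, the 6 higher and 2 lower in the tumours against the controls, and the 6 higher and 1 lower in the tumours against 4M and 5M did not move when any single array was left out. The count lower in 2M and 3M was 0 with the mean of all probe sets of a gene or with before_activation alone as controls, and that in the tumours against the controls was 1 with the mean of all probe sets. Over the alternatives the count higher in the tumours was 5 or 6, both against the controls and against 4M and 5M. Other small moves of larger counts are not listed here. In 4M and 5M the count lower was 1 with the methods' t-test, 1 fit of all 8 groups, the floor of 5, the mean of all probe sets or either omission of arrays with lymphocyte markers over 7, and 0 with before_activation alone. The omissions leave a single 2M gland, replicate 1, which is then assumed to vary like the other group, so that their values for 2M compare that gland and carry no weight as a check. In 2M the count higher was 1 with the lymphocyte covariate, 0 with before_activation alone, 0 without arrays with lymphocyte markers over 7 and 1 without before_activation replicate 1 as well. The count lower there was 1 with all 8 groups, with a mean of at least 5 and, with the single gland, under that last omission. In 1M the count higher was 5 with all 8 groups, a mean of at least 5 or the lymphocyte covariate, 1 with the replicate block, and 0 with before_activation alone or without arrays with lymphocyte markers over 7. The count lower in 1M was 1 with the methods' t-test, all 8 groups, the mean of all probe sets or before_activation alone, and 0 under both omissions. With all 8 groups 3 genes were higher in before_activation than in wild_type, as were 844 of 45037 probe sets. In 2M against 1M 1 gene was higher with all 8 groups, as were 114 probe sets, and also with a mean of at least 5. The cause was not tested in these cases. Leaving out 1 array gave 1 to 2 genes lower in 4M and 5M, 0 to 5 higher and 0 to 1 lower in 2M, 0 to 5 higher and 1 to 2 lower in 1M, and 0 to 1 with a positive slope.

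Of 2070 values of single genes under an alternative 34 changed direction, none of them past the threshold in the new direction. In 2M and 3M the difference of Ccnd1 was 0.11 without arrays with lymphocyte markers over 7 and 0.29 without before_activation replicate 1 as well, and with the mean of all probe sets that of Ccnd3 was 0.03 and that of Ccne1 -0.07. In 4M and 5M the difference of Ccnd1 was 0.22 with the mean of all probe sets and 0.15 under the wider omission. In 2M the mean of all probe sets gave 0.12 for Ccnd3 and -0.08 for Ccne1. Between before_activation and wild_type it gave 0.18 for Ccnd3, Ccne1 differed by 0.08 and 0.07 under the narrower and the wider omission, and Ccne2 by -0.11 with quantile normalization and -0.02 with the floor of 5. Between 2M and 1M the mean of all probe sets gave 0.32 for Ccnd3, and without arrays with lymphocyte markers over 7, with a single gland of 2M against 3 of 1M, Ccnd2 differed by -0.82 and Ccne2 by 0.54. That omission also gave Ccnd3 a slope of 0.01. Without 1 array the difference between before_activation and wild_type ran from -0.18 to 0.14 for Ccnd2 and from -0.22 to 0.23 for Ccne2. That between 2M and 1M ran from -0.16 to 0.13 for Ccnd3, from -0.15 to 0.13 for Ccne2, from -0.05 to 0.30 for Ccna2, from -0.09 to 0.31 for Ccnb2 and from -0.03 to 0.26 for Cdk1.

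Probe sets passed in numbers that moved more. In 2M and 3M 2412 rose and 2942 fell, and the alternatives gave 1143 to 3036 and 793 to 3334. In the tumours against the controls 8471 rose and 6480 fell, and the alternatives gave 5440 to 10275 and 4999 to 7530. In 2M 891 rose and 891 fell (alternatives 104 to 1701 and 45 to 1534), in 1M 1201 and 531 (193 to 1634 and 17 to 867), and in 4M and 5M 3515 and 3161 (2003 to 4078 and 1302 to 3921). Against 4M and 5M, 6478 rose and 4868 fell in the tumours (3255 to 8294 and 3278 to 5640). Between before_activation and wild_type the alternatives reached 844 higher and 10837 lower, against 0 in each direction, and for the slope 430 and 631, against 26 and 4. Between 2M and 1M 49 rose and 67 fell (0 to 161 and 1 to 167).

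The replicate numbers were not taken to pair the arrays: arrays of the same number in different groups had a mean correlation of 0.0588 (-0.466 to 0.676) in their deviations from the group means, against -0.0139 for other numbers. By contrast, 21 of 40 arrays correlated best on average with the arrays of their own number, against 8 by chance, a hint from the data that is not in the labels. With the replicate number as a block, 1 gene was higher in 1M and no other count of genes moved by more than a small margin. The methods' t-test and the fit of all 8 groups were not run for the slope. Signal near the floor limits the size of the differences of Ccna2, Ccnb1, Ccnb2 and Ccnf.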
